A study of Mus musculus with 12 samples.

Results

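The genotype difference in the stroke response was measured as a difference of differences. For each gene the change between hemispheres in mutant microglia, IL - CL, was reduced by the same change in control microglia, so that the contrast was (cKO IL - cKO CL) - (WT IL - WT CL) on the log2 scale. It was taken over 12 of the 12 RNA-seq libraries, with 3 libraries in each of the 4 groups. A positive contrast means that a gene stood higher in IL relative to CL in cKO than it did in WT, and a negative contrast means the opposite.

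The WT mice carried Cx3cr1-CreER+/- alone and the cKO mice carried Cx3cr1-CreER+/- together with the floxed allele Nhe1f/f. All 4 groups therefore carried 1 copy of the Cre driver, and both genotypes had been given tamoxifen at 75 mg/kg/day for 5 days between postnatal days 30 and 40 and then left for 30 days. The animals were males or females of 2 to 3 months. The middle cerebral artery was occluded for 60 min and the cells were collected 72 h later. IL is the ischemic hemisphere and CL is the non-ischemic hemisphere of the operated brain, and no library of an unoperated or sham brain was used here. The cells were enriched with magnetic beads against P2RY12, a purinergic receptor of microglia, to a stated purity above 95% CD11b+. Cx3cr1 is active in microglia and also in border-associated macrophages and in monocytes, and the study's methods give the wait after tamoxifen as a time for monocytes to be renewed.

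After stroke, microglia leave their homeostatic state and turn on genes of phagocytosis, lysosomes, lipid handling and antigen presentation. A part of that response can be driven by type I interferon, which signals through its receptor to STAT2 and IRF9, among other factors, and their complex binds a short element in the promoters of interferon-induced genes. The contrast asks which of these programs differed in size between the genotypes.

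The libraries held 2091512 to 47256174 counts, and the groups differed in depth. The WT CL libraries held 12647526, 5155202 and 2091512 counts and the cKO IL libraries 44907863, 47256174 and 43961276. The libraries of a group are called A, B and C in the rising order of the number in their column name. The study describes the replicates of this sequencing as biologically independent animals. The p-values therefore measure a spread between libraries of different animals within a group, and the technical part of that spread was not tested. Each number in the column names occurs in both a CL and an IL library of the same genotype. The main fit treated all libraries as independent and ignored any such pairs. Whether a CL and an IL library with the same number came from 1 animal is not given. Levels are CPM, counts relative to the library total after scaling by TMM. Several libraries stood apart from their group, 3 of which are described here and others beside the genes they touch. WT CL C was the smallest library, and only 25 of 40 interferon-induced genes had a count in it. WT CL A carried a summed 1888 CPM of 8 leptomeningeal transcripts and 1605 CPM of 14 endothelial and mural transcripts, against 110 to 118 CPM and 250 to 329 CPM in the other WT CL libraries. Its endothelial level was matched by cKO IL B at 1723 CPM. WT IL A resembled the CL libraries in the stroke-induced genes: Spp1, which encodes osteopontin, stood at 9.38 CPM in it, against 1255 and 4686 CPM in the other WT IL libraries and 3532 to 8612 CPM in cKO IL. The summed level of 20 monocyte genes was 6502 CPM in WT CL A and 1048 CPM in WT IL A, the reverse of the order in the other WT libraries, where CL held 367 and 458 CPM and IL 9208 and 21310 CPM. Most of the sum in WT CL A came from Fn1, whose levels are given below. The mean log2 CPM of the same list was not reversed, at 2.83 in WT CL A and 3.22 in WT IL A. Whether the labels of WT CL A and WT IL A were exchanged was not tested, and results are also given without both.

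The level of the floxed gene is not given, so the libraries were not checked against their genotype labels by it. P2ry12, the sorting marker, had a contrast of 1.23 (SE 0.79, edgeR's quasi-likelihood test, adjusted p = 1), with 84.9 to 541 CPM over the IL libraries and 131 to 343 CPM over the CL libraries.

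No gene of the 35674 tested passed an adjusted p under 0.05 (edgeR's quasi-likelihood test, Benjamini-Hochberg, two-sided), so the share of genes called was 0%. At an unadjusted p under 0.05 there were 1355 genes, of which 295 had a positive contrast (0.827% of those tested) and 1060 a negative one (2.97%). All 1355 were also past the 2-fold threshold that the study set for its own comparisons. DESeq2 called 4 genes, Gm23485 and Gm20770 with a positive contrast and Tcstv3 and AC161383.1 with a negative one, and each of them had 0 counts in a whole group. limma with voom and quality weights called 0. The counts at an unadjusted p under 0.05 moved with single libraries, from 177 positive genes without WT IL A to 989 without WT IL C, and from 582 negative genes without cKO CL A to 5356 without WT CL B. The precision was low: over the 13380 genes that reached 10 CPM in at least 1 group, the 95% interval reached a median of 1.89 in log2 to either side of the contrast.

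The direction of the contrast depended on how abundant a gene was. Its median over all tested genes was -0.48 and it was positive for 36.8% of them. The median was -1.89 for the 10223 genes under a mean of 1 CPM, -0.60 for the 15115 genes of 1 to 10 CPM, 0.13 for the 8075 genes of 10 to 100 CPM and 0.06 for the 2261 genes of 100 CPM or more. Of the 1060 genes with a negative contrast at an unadjusted p under 0.05, 750 were not protein coding, against 62 of the 295 with a positive contrast. The 1412 tested olfactory, vomeronasal and taste receptor genes, which belong to sensory epithelia, had a median of -1.47, and 73 of them were among the negative genes and 3 among the positive ones. The share of counts that fell on these receptors was 0.197 to 1.03% in WT CL, 0.0225 to 0.196% in WT IL, 0.259 to 0.846% in cKO CL and 0.0371 to 0.0549% in cKO IL. The part of these transcripts and of depth in the negative tail was not tested. Lists of genes are therefore set against the 13380 more abundant genes, whose median was 0.11 and of which 55.1% were positive.

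Among those 13380 genes, 253 had a positive contrast at an unadjusted p under 0.05 (1.89%) and 148 a negative one (1.11%). As the selection on the contrast favours, many had fitted changes of opposite sign in WT and cKO. Of the 253 positive genes, 153 had a fitted change below 0 in WT and above 0 in cKO, 70 had a change above 0 in both genotypes and 30 a change below 0 in both. Of the 148 negative genes, 109 were above 0 in WT and below 0 in cKO, 23 above 0 in both and 16 below 0 in both.

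**Figure D1:**
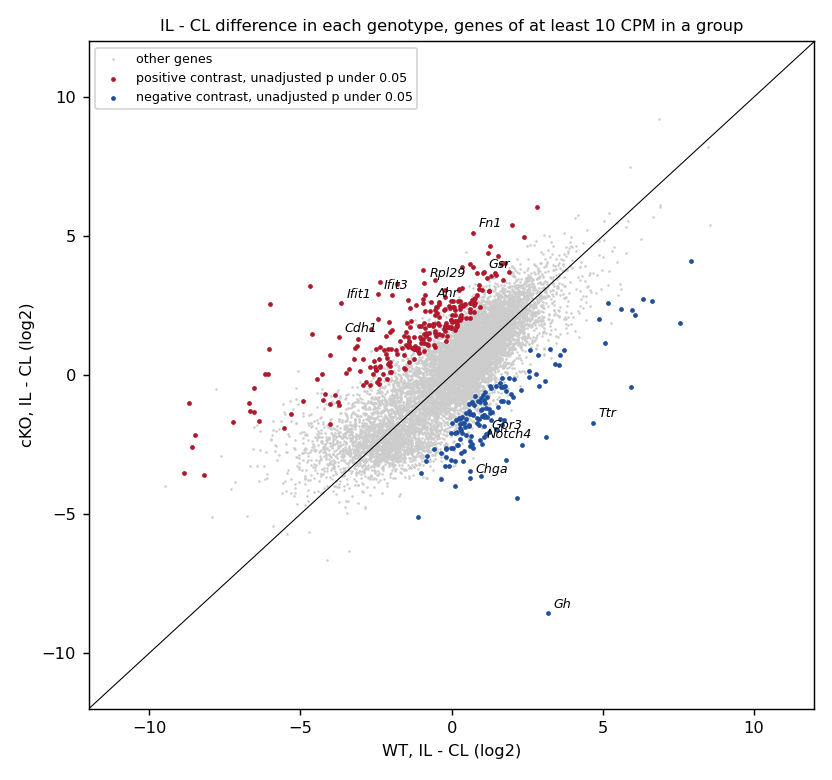
Each point is 1 of the genes that reached 10 CPM in at least 1 group and had a count in every group. The x axis is the IL - CL difference in WT and the y axis the IL - CL difference in cKO, both in log2 as fitted. Red points have a positive and blue points a negative contrast at an unadjusted p under 0.05, and the line marks equal differences. Ifit1 and Ifit3 lie left of 0 on the WT axis and above 0 on the cKO axis, and Gh lies right of 0 and far below 0.

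Interferon-induced genes had the largest median contrast of the 40 lists examined, which were chosen with earlier results of these data known. They did not with voom, where complexes III to V stood at 1.22 and the interferon list at 0.97, with the column number as a replicate block (1.22 against 1.07), without WT CL A, where the cell cycle list stood at 0.65 and the interferon list at 0.49, or without WT IL C (2.28 against 2.0 for complexes III to V and the interferon list). These genes encode antiviral effectors such as the IFIT proteins, which bind foreign RNA, the ubiquitin-like modifier ISG15 and the RNA sensors MDA5 and RIG-I. Of 40 members tested, 38 had a positive contrast and 13 were at an unadjusted p under 0.05, all 13 positive, beside 1.89% of genes of 10 CPM or more. Their median contrast was 1.69, against 0.11 over the more abundant genes. The median change between hemispheres was 0.39 in WT and 2.19 in cKO, while the median difference cKO - WT was -0.34 in CL and 1.41 in IL. No member passed the adjusted p. Because of how the lists were chosen, the rank and the count of 13 members are no independent support.

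The level of the list separated the hemispheres in cKO and did not in WT. Its mean log2 CPM was 3.27, 3.24 and 3.65 in cKO CL and 5.25, 5.50 and 6.20 in cKO IL, so that every IL library lay above every CL library. In WT it was 4.67, 3.09 and 0.54 in CL and 3.57, 4.16 and 4.83 in IL, and the hemispheres overlapped. The highest WT CL value came from WT CL A and the lowest from WT CL C, the smallest library. The pattern was not particular to this list. Among the lists described below, the ribosomal, respiratory, glycolysis, TCA cycle and disease-associated lists also separated the hemispheres in cKO only. In each of those WT CL A lay above WT IL A, at 5.76 against 5.17 in the ribosomal list.

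The 3 promoters below, from RefSeq on GRCm38.p6, belong to the members with the largest contrasts and show the element through which type I interferon acts. Each window runs from 250 bases before to 50 after the start site. Capitals mark matches to TTTC, then NN, then TTTC on either strand (on the opposite strand GAAA, NN, GAAA), the spacing of the interferon-stimulated response element.
Ifit1, chr19:34640639-34640938, plus strand: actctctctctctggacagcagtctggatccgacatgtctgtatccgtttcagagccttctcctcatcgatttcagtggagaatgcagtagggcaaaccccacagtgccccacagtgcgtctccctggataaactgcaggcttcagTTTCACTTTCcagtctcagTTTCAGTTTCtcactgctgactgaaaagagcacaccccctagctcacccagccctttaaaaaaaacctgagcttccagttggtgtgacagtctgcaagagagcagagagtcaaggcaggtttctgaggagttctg
Ifit3, chr19:34583279-34583578, plus strand: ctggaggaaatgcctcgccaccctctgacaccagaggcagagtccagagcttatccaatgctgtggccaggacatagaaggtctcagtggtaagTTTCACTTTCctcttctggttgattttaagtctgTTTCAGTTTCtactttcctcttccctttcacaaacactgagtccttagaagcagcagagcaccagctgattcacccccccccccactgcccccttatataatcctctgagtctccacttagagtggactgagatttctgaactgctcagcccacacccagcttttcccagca
Isg15, chr4:156200769-156201068, minus strand: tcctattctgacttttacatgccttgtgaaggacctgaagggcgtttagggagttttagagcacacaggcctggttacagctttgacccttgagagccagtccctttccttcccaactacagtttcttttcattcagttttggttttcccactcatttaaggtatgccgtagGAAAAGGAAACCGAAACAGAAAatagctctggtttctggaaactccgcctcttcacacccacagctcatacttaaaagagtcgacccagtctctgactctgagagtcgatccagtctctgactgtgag
Ifit1 and Ifit3 hold 2 separate matches each and Isg15 holds 3 that overlap one another.

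Windows on chromosome 18 were left out of these counts. Of the 40 interferon-induced genes 30 had a promoter window in RefSeq among the rest, and 18 of these held at least 1 match (60%). The share was 3.99% over the 27025 genes with such a window and 3.44% over such windows. Of the 13 members at an unadjusted p under 0.05, 11 had a window and 7 of them a match. Xaf1, Oasl1, Oasl2 and Ifit2 had a window without these letters. A match is a description of the sequence and no measure of binding.

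Ifit1 (chromosome 19, 34640871 to 34650009, GRCm38) encodes a protein that binds viral RNA lacking a host cap. It stood at 161, 1.05 and 2.93 CPM in WT CL and at 1.63, 3.76 and 7.81 CPM in WT IL. It stood at 3.02, 4.23 and 2.71 CPM in cKO CL and at 22.9, 18.2 and 19.1 CPM in cKO IL. The cKO hemispheres did not overlap, while in WT the single library WT CL A lay far above all others. The contrast was 6.24 (SE 1.55, 95% interval 3.04 to 9.44, unadjusted p = 0.000517, adjusted p = 1 by edgeR), and without WT CL A it was 1.41 at an unadjusted p of 0.216 from the same test by edgeR.

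Ifit3, which works in a complex with Ifit1, stood at 114, 5.25 and 0 CPM in WT CL, 5.77, 5.77 and 10.6 CPM in WT IL, 2.88, 4.72 and 9.86 CPM in cKO CL and 20.6, 37.7 and 72.5 CPM in cKO IL. Again WT CL A was the highest of the 12 libraries. Its contrast was 5.34 (SE 1.55), and 1.57 without WT CL A. Isg15 stood at 51.1, 2.40 and 0.293 CPM in WT CL, 2.97, 4.09 and 21.0 CPM in WT IL, 0.737, 4.78 and 1.44 CPM in cKO CL and 19.8, 26.9 and 48.2 CPM in cKO IL. Its contrast was 4.72 (SE 1.56), and 1.10 without WT CL A.

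Some other members did not depend on that library. Of those described next, Ifih1, Oasl1 and Rsad2 lie outside the naming rule and were chosen with their values known. Their steadiness is therefore no independent support. Ifih1 encodes MDA5, a sensor of double-stranded RNA. It stood at 49.4, 27.0 and 35.8 CPM in WT CL and 23.7, 38.5 and 49.8 CPM in WT IL, so that the WT hemispheres overlapped almost fully. In cKO it stood at 18.0, 20.4 and 25.4 CPM in CL and 79.9, 66.0 and 106 CPM in IL, with no overlap. The contrast of Ifih1 was 1.99 (SE 0.69, unadjusted p = 0.00809 by edgeR) and stayed between 1.75 and 2.25 when each library was left out in turn. Xaf1, an interferon-induced gene with a role in apoptosis, stood at 29.8, 5.85 and 32.3 CPM in WT CL, 8.27, 13.3 and 19.9 CPM in WT IL, 6.97, 7.25 and 10.8 CPM in cKO CL and 26.6, 29.9 and 66.8 CPM in cKO IL. Its contrast was 3.01 (SE 0.92), with a range of 2.47 to 3.47 over the same fits.

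Oasl1, a regulator of Irf7 translation in mouse, stood at 18.3, 16.5 and 20.5 CPM in WT CL and at 10.7, 9.04 and 11.0 CPM in WT IL, with every IL library below every CL library. In cKO it stood at 7.64, 9.77 and 19.1 CPM in CL and at 17.0, 41.2 and 45.8 CPM in IL, where 1 IL library lay within the CL range. Its contrast was 2.36 (SE 0.84, range 2.11 to 2.84 over the fits without 1 library). Rsad2, which encodes the antiviral enzyme viperin, stood at 12.2, 7.05 and 27.0 CPM in WT CL, 9.79, 4.50 and 40 CPM in WT IL, 6.90, 2.31 and 7.70 CPM in cKO CL and 45.3, 37.8 and 56.9 CPM in cKO IL. Its contrast was 2.81 (SE 1.03, range 2.35 to 4.15). Ifih1, Xaf1, Oasl1 and Rsad2 were at an unadjusted p under 0.05 in all 12 fits that left out 1 library, by edgeR.

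**Figure D2:**
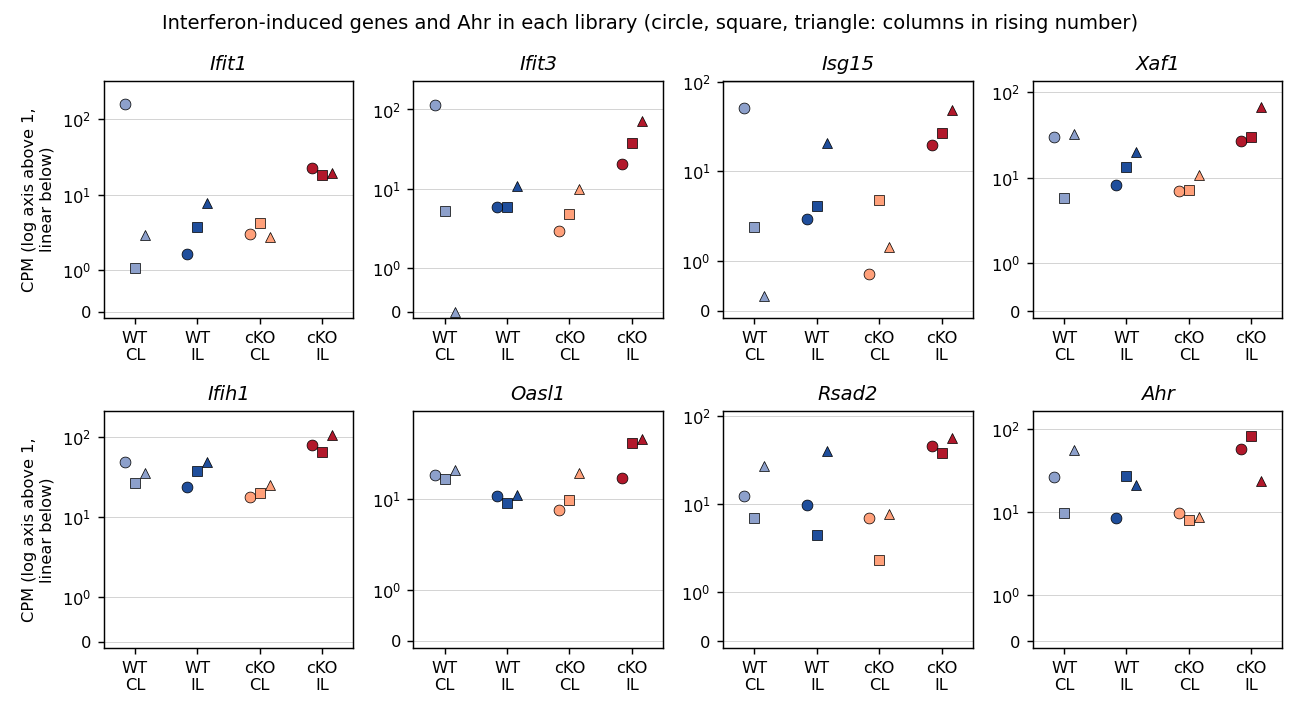
Level in CPM of 7 interferon-induced genes and Ahr in each of the 12 libraries, on an axis that is logarithmic above 1 and linear below. Circles, squares and triangles are the columns of a group in rising number (A, B and C). The light blue circle of WT CL A tops Ifit1, Ifit3 and Isg15 at 161, 114 and 51.1 CPM, and the cKO IL libraries lie above all cKO CL libraries except for Oasl1.

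The size of the list's contrast rested in part on WT CL A. Without that library the median was 0.49, 27 of 40 members were positive and 6 were at an unadjusted p under 0.05, 0 of them negative. Without both WT libraries A it was 0.34, with 26 members positive, 5 positive and 1 negative at an unadjusted p under 0.05, and a contrast of 1.0 for Ifit1. Without WT CL C, the smallest library, the median was 2.16 and 25 members were at an unadjusted p under 0.05. WT CL A was also the library with the high leptomeningeal and endothelial transcripts, and its summed level of interferon-induced genes was 1654 CPM, against 542 and 400 CPM in the other WT CL libraries. The part of those cells in the level was not tested. The summed level of 20 genes of infiltrating monocytes, which respond strongly to interferon, was 13740 to 37720 CPM in cKO IL, against 1048, 9208 and 21310 CPM in WT IL. The single gene Fn1, whose levels are given below, made up a large part of these sums. The part of monocytes in the contrast was not tested either, and a higher share of such cells cannot be told apart here from more RNA per cell.

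A separate list of genes that sense and transmit interferon did not follow the induced genes. Of its 18 genes 5 had a positive contrast and 0 were at an unadjusted p under 0.05 in either direction, with a median of -0.30. The sensors Ifih1 and Ddx58 (RIG-I) and the factors Stat2, Irf9 and Irf7 were counted in the induced list. The difference between the 2 lists therefore depends in part on how they were made. Ifnar1, a chain of the type I interferon receptor, had a contrast of 0.86 (SE 0.64), and Irf5, a transcription factor downstream of Toll-like receptors, -1.13 (SE 0.69). Jak1, a kinase of the receptor, had -0.75 (SE 0.68) and Mb21d1, the DNA sensor cGAS, -1.02 (SE 1.06). Among 18 genes of MHC class I presentation, many of which interferon also induces, 12 were positive, 2 were at an unadjusted p under 0.05 and the median was 0.49. These were Psmb8, an immunoproteasome subunit, at 1.52 (SE 0.69), and H2-T22 at 2.54 (SE 1.12). Nlrc5, the transactivator of class I genes, had 1.52 (SE 0.77) and Psme1, a proteasome activator, 1.32 (SE 0.70). Psmb8 stood at 16.6, 20.3 and 23.7 CPM in cKO CL and 109, 88.6 and 92.7 CPM in cKO IL, and at 28.0, 24.9 and 38.1 CPM in WT CL and 27.8, 41.6 and 82.1 CPM in WT IL. The cKO hemispheres were far apart and the WT hemispheres overlapped.

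Of 10 genes of MHC class II presentation 7 were positive and 0 were at an unadjusted p under 0.05, with a median of 0.48. H2-Ab1, a chain of the class II molecule, had a contrast of 1.04 (SE 0.89) and H2-Eb1 0.67 (SE 0.85). H2-DMb1 had 0.98 (SE 0.98) and H2-DMa, which loads peptide onto class II, -1.60 (SE 1.05).

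The other genes of lowest p with a positive contrast came from several functions. Ahr encodes the aryl hydrocarbon receptor, a transcription factor that responds to ligands from diet and tryptophan metabolism. It stood at 26.3, 9.75 and 55.7 CPM in WT CL and 8.62, 27.0 and 21.1 CPM in WT IL, and the WT hemispheres overlapped. In cKO it stood at 9.78, 8.07 and 8.78 CPM in CL and 58.3, 82.1 and 24.1 CPM in IL, with no overlap. The contrast was 3.31 (SE 0.91, unadjusted p = 0.00138 by edgeR) and ranged from 2.80 to 3.74 over the fits without 1 library. Mfap1a, a splicing factor, had a contrast of 3.60 (SE 1.06) and Alcam, an adhesion molecule of leukocytes and endothelium, 3.19 (SE 0.96). Alcam stood at 211, 14.4 and 44.3 CPM in WT CL, 24.5, 41.8 and 81.3 CPM in WT IL, 27.5, 26.7 and 15.8 CPM in cKO CL and 147, 121 and 80.6 CPM in cKO IL, and without WT CL A its contrast was 1.59.

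Cdh1, which encodes E-cadherin of epithelial junctions, had a contrast of 5.08 (SE 1.32). Its level was 519 CPM in WT CL A and between 6.89 and 65.0 CPM in the other 11 libraries, and without WT CL A its contrast was 2.35. Defb45, a defensin of the male reproductive tract in mouse, had a contrast of 6.33 (SE 1.95) that rested on WT CL, at 8.50, 2.85 and 31.7 CPM, with at most 1.26 CPM in the other 9 libraries. Rpl29, a ribosomal protein, had a contrast of 4.24 (SE 1.22) and stood at 90.3, 12.7 and 0.587 CPM in WT CL, 8.22, 11.7 and 35.7 CPM in WT IL, 32.9, 22.1 and 39.8 CPM in cKO CL and 354, 225 and 374 CPM in cKO IL. Ribosomal protein genes have many processed copies in the genome, so its count could be split between copies. The 3 genes whose log2 CPM was most like that of Ifit1 over the 12 libraries were Dsel (Pearson r = 0.947), Net1 (0.938) and Alcam (0.921). Ifit1 and Alcam were both highest in WT CL A, and the part of that library in these correlations was not tested.

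**Figure D3:**
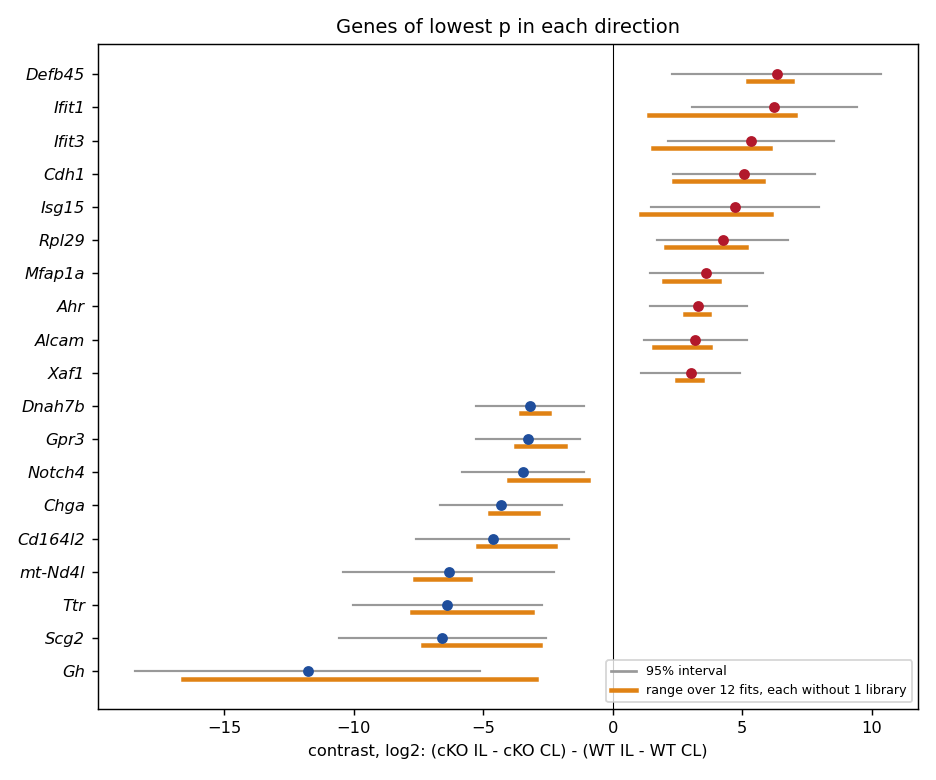
Contrast in log2 of the 10 positive and 9 of the 10 negative genes of lowest p among those that reached 10 CPM in a group, with the 95% interval in grey and the range over 12 fits that each left out 1 library in orange. Ifi202b is left out because its counts were 0 in all WT CL libraries. The orange ranges stay on 1 side of 0 for all 19 genes and are widest for Gh, from -16.58 to -2.98.

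Genes of the translation and respiration machinery had positive median contrasts of small size, which turned negative without both WT libraries A. This was not particular to them, as the lysosomal (-0.32) and MHC class I (-0.09) medians also turned negative in that fit. The interferon-induced (0.34) and cell cycle (0.32) medians stayed positive. Of 47 cytosolic ribosomal protein genes 44 were positive with a median of 0.91, but only Rpl29 and Rpl6 were at an unadjusted p under 0.05. Rpl7 had 1.66 (SE 0.89) and Rps20 1.72 (SE 0.98). Of 35 nuclear-encoded subunits of complexes III to V, which complete the respiratory chain and make ATP, 30 were positive with a median of 0.89, and 0 were at an unadjusted p under 0.05. The members of lowest p were Atp5f1 at 1.76 (SE 0.91), Atp5j2 at 1.39 (SE 0.76), Cycs, the electron carrier cytochrome c, at 1.54 (SE 0.86), and Uqcrh at 1.37 (SE 0.92). Of 36 nuclear-encoded subunits of complex I, which feeds electrons from NADH into the chain, 28 were positive with a median of 0.54. The 3 at an unadjusted p under 0.05 were Ndufa13 at 2.19 (SE 0.85), Ndufb7 at 1.77 (SE 0.81) and Ndufb9 at 3.03 (SE 1.40), and Ndufs6 had 2.20 (SE 1.11).

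Of 21 enzymes of glycolysis and the pentose phosphate pathway 15 were positive with a median of 0.62, and Tpi1, triosephosphate isomerase, was at an unadjusted p under 0.05 with 1.70 (SE 0.77). Pgk1 had 1.74 (SE 0.90), Taldo1 1.58 (SE 0.84) and G6pdx, which makes NADPH at the entry of the pentose phosphate pathway, 1.51 (SE 0.75). Of 21 enzymes of the TCA cycle 17 were positive with a median of 0.43, and Idh3b, an isocitrate dehydrogenase subunit, was at an unadjusted p under 0.05 with 1.77 (SE 0.74). Pdhb had 1.19 (SE 0.73), Pdha1 0.98 (SE 0.73) and Mdh1 1.18 (SE 0.92).

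The WT IL libraries differed widely in these lists. The mean log2 CPM of the ribosomal protein genes was 5.17, 6.36 and 8.09 in WT IL, set against 8.25, 7.55 and 8.0 in cKO IL. It was 5.76, 4.45 and 4.06 in WT CL and 4.74, 5.57 and 5.34 in cKO CL. WT IL A lay within the range of the CL libraries and WT IL C within the range of cKO IL. Without WT IL C the median contrast of the ribosomal list was 1.99 and 30 of its members were at an unadjusted p under 0.05, and that of complexes III to V was 2.28 with 24 such members. Without WT CL A the medians were 0.26 for the ribosomal list, 0.34 for complexes III to V, -0.095 for complex I, with 16 of 36 members positive, and 0.05 for both the glycolysis and the TCA list. Without both WT libraries A they were -0.17, -0.069, -0.56, -0.040 and -0.18.

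**Figure D4:**
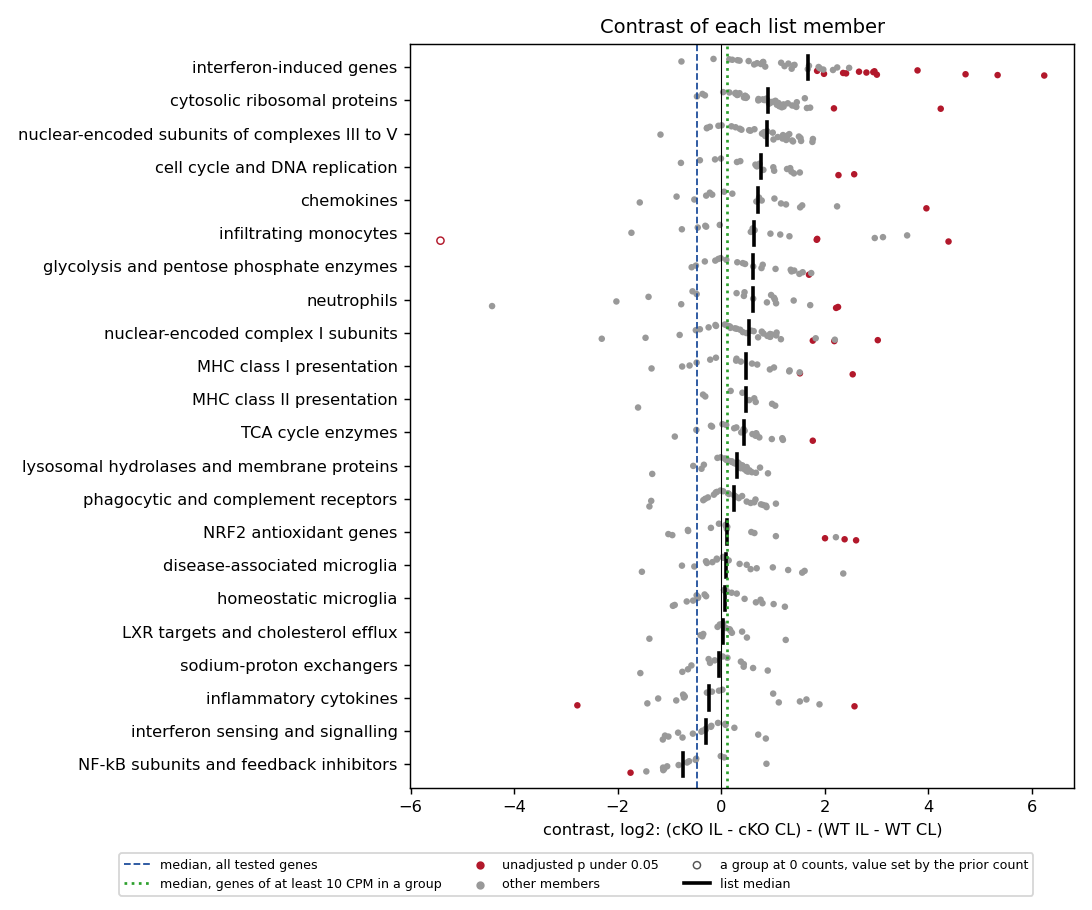
Contrast in log2 of each member of 22 gene lists, sorted by the list median (black bar). Red points are members at an unadjusted p under 0.05 and grey points the others, and the open circle is Ms4a4c, whose value is set by the prior count because a group is at 0. Dashed and dotted lines mark the medians of all tested genes (-0.48) and of the genes that reached 10 CPM in a group (0.11). The interferon-induced genes reach furthest to the right with a median of 1.69, and the NF-kB list lies furthest to the left with a median of -0.74.

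Genes of the NRF2 antioxidant response split. Of 17 genes 11 were positive, the median of 0.11 equalled that of the more abundant genes, and 3 were at an unadjusted p under 0.05, all positive. Gsr, glutathione reductase, stood at 18.5, 8.85 and 28.2 CPM in WT CL, 9.32, 20.6 and 84.4 CPM in WT IL, 8.17, 6.81 and 5.43 CPM in cKO CL and 106, 87.6 and 63.4 CPM in cKO IL. The WT hemispheres overlapped and the cKO hemispheres did not. Its contrast was 2.61 (SE 0.91, range 2.15 to 3.96 over the fits without 1 library). Srxn1, sulfiredoxin, had a contrast of 2.39 (SE 0.84) and Slc7a11, the cystine importer that feeds glutathione synthesis, 2.01 (SE 0.76). Slc7a11 stood at 21.2, 19.6 and 20.2 CPM in WT CL, 19.1, 32.4 and 50.8 CPM in WT IL, 24.1, 19.5 and 8.06 CPM in cKO CL and 128, 156 and 63.8 CPM in cKO IL, where all 3 libraries lay above the other 9. Nqo1, a quinone reductase often used as a marker of NRF2 activity, had a contrast of 2.22 (SE 1.67) that did not pass.

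Of 14 NF-kB subunits and feedback inhibitors 2 were positive, with a median of -0.74. Nfkb2, a subunit of the non-canonical pathway, was at an unadjusted p under 0.05, with 157, 293 and 58.1 CPM in WT CL, 672, 226 and 147 CPM in WT IL, 217, 410 and 190 CPM in cKO CL and 149, 193 and 158 CPM in cKO IL. The highest value was WT IL A and the groups overlapped. Its contrast was -1.75 (SE 0.81). Relb had -1.45 (SE 0.86), Nfkbie -1.12 (SE 0.68) and Nfkbiz -1.10 (SE 0.67), and none of these passed. The median of the list ranged from -1.06 without WT CL B to -0.24 without WT CL C, and without the shallow libraries WT CL B and C it was -0.12 with 5 of 14 positive, 1 positive and 0 negative members at an unadjusted p under 0.05.

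Of 18 inflammatory cytokines and related mediators 7 were positive, with a median of -0.23. Ptgs2, the inducible cyclooxygenase, was at an unadjusted p under 0.05 with 2.58 (SE 1.10). Its level was 1.68, 2.58 and 9.22 CPM in cKO CL and 107, 145 and 177 CPM in cKO IL, with 13.4, 6.0 and 22.9 CPM in WT CL and 6.82, 44.9 and 170 CPM in WT IL. Il10, an anti-inflammatory cytokine, was at an unadjusted p under 0.05 with -2.78 (SE 1.28). It stood at 5.89, 3.60 and 0 CPM in WT CL, 27.9, 28.0 and 13.3 CPM in WT IL, 5.23, 36.1 and 3.71 CPM in cKO CL and 13.6, 15.3 and 16.9 CPM in cKO IL. The WT hemispheres did not overlap, and in cKO 1 CL library was the highest of all 12. Il1rn, the antagonist of the interleukin-1 receptor, had 1.90 (SE 0.92) and Nlrp3, an inflammasome sensor, -1.43 (SE 0.78).

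Of 18 chemokines 12 were positive with a median of 0.71. Cxcl14 was at an unadjusted p under 0.05 with 3.97 (SE 1.37), and it stood at 2.09, 6.15 and 77.5 CPM in WT CL, 2.10, 15.6 and 39.9 CPM in WT IL, 4.36, 3.62 and 10.9 CPM in cKO CL and 33.0, 100 and 67.6 CPM in cKO IL. Ccl2, which draws monocytes, had 1.53 (SE 0.85), Ccl7 2.24 (SE 1.31) and Ccl6 1.57 (SE 1.06). Ccl2 stood at 6.83, 12.2 and 15.5 CPM in cKO CL and 112, 139 and 157 CPM in cKO IL, and at 21.0, 15.4 and 4.99 CPM in WT CL and 23.8, 30.8 and 117 CPM in WT IL. Every IL library lay above every CL library in both genotypes, and WT IL C reached the level of cKO IL.

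The genes by which microglia are recognised had contrasts on both sides of 0. Of 20 genes of homeostatic microglia 11 were positive and 0 were at an unadjusted p under 0.05, with a median of 0.07. With voom and quality weights 5 were positive, 4 negative members were at an unadjusted p under 0.05 and the median was -0.60. Tmem119 had -0.93 (SE 0.66), Csf1r, the receptor on which microglia depend for survival, -0.90 (SE 0.70), and Fcrls 1.01 (SE 0.87). Of 20 disease-associated microglia genes 12 were positive and 0 were at an unadjusted p under 0.05, with a median of 0.09. That median ranged from -0.15 without WT IL A to 1.38 without WT IL C, and was -0.37 without both WT libraries A. Spp1 had 2.36 (SE 1.51), Fabp5 1.61 (SE 1.40), Igf1 -1.53 (SE 1.08) and Ccl6 1.57 (SE 1.06). The mean log2 CPM of the disease-associated list was 5.36, 7.79 and 9.30 in WT IL, set against 9.18, 8.72 and 9.15 in cKO IL, while the CL libraries lay at 4.05 to 5.48 in WT and 5.22 to 5.77 in cKO. The WT IL libraries thus spanned the range from CL to cKO IL, and the cKO IL libraries stood close together.

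Of 25 phagocytic and complement receptors 16 were positive with a median of 0.25, and 0 were at an unadjusted p under 0.05. Those of lowest p were Itgam, a chain of complement receptor 3, at 0.88 (SE 0.65), Msr1 at -1.39 (SE 1.02), C5ar1 at 0.87 (SE 0.70) and Cd14 at 0.81 (SE 0.69). Of 30 lysosomal hydrolases and membrane proteins 24 were positive with a median of 0.30, and 0 were at an unadjusted p under 0.05. Ctsl had 0.91 (SE 0.74) and Hexa 0.60 (SE 0.71). The lysosomal median ranged from -0.04 without WT CL A, with 14 of 30 positive, to 0.93 without WT IL C, and it was 0.97 with 29 of 30 positive without the shallow libraries, where 23 of 25 phagocytic receptors were positive. Without both WT libraries A 3 of 30 lysosomal and 6 of 25 phagocytic genes were positive. Of 17 subunits of the vacuolar proton pump, which acidifies lysosomes, 5 were positive with a median of -0.04. The direction depended on the fit: 16 were positive with voom (median 0.42), 15 with no filter (0.08) and 3 with total counts (-0.31). Of 15 LXR targets and genes of cholesterol efflux 9 were positive with a median of 0.04. Nr1h3, which encodes LXR alpha, had 1.25 (SE 0.94), Ch25h -1.39 (SE 1.62), Scd2 0.50 (SE 0.86) and Mylip -0.36 (SE 0.64). With intervals of this width, differences of 2-fold in such genes were not detectable.

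Sodium-proton exchangers, which set the pH of the cytosol and of organelles, showed no contrast at an unadjusted p under 0.05. Of 14 sodium-proton exchangers 7 were positive with a median of -0.05. Slc9a5 had -1.56 (SE 0.92), Slc9a8 of the Golgi -0.75 (SE 0.71), Slc9a9 of endosomes -0.64 (SE 0.66) and Slc9a7 of the trans-Golgi 0.90 (SE 0.90). Slc9a9 had the narrowest 95% interval of these 4, from -2.01 to 0.73. Of 9 subunits of the NADPH oxidase 6 were positive with a median of 0.08, and 0 were at an unadjusted p under 0.05.

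Of 20 genes of infiltrating monocytes 13 were positive and the median was 0.63. At an unadjusted p under 0.05, 3 members were positive, among them Fn1 and Vcan, and 1 was negative, which was Ms4a4c. The median was 0.65 without Ms4a4c, which had 0 counts in all WT CL libraries and for which no fold is given. Fn1, the matrix protein fibronectin, had a contrast of 4.39 (SE 1.48, unadjusted p = 0.00699 by edgeR). It stood at 5976, 73.2 and 143 CPM in WT CL, 452, 3197 and 6553 CPM in WT IL, 147, 512 and 404 CPM in cKO CL and 15537, 14877 and 6382 CPM in cKO IL. WT CL A stood apart again, and without it the contrast was 0.11. Vcan, a proteoglycan, had 1.85 (SE 0.81) and 13.9, 20.4 and 51.1 CPM in WT CL, 33.6, 30.8 and 12.9 CPM in WT IL, 23.5, 26.5 and 22 CPM in cKO CL and 128, 66.0 and 42.3 CPM in cKO IL. The cKO hemispheres did not overlap and those of WT did. The summed level of the list was 1048, 9208 and 21310 CPM in WT IL, set against 37720, 29400 and 13740 CPM in cKO IL, beside 367 to 6502 CPM over the CL libraries. The cells had been selected by P2RY12, a marker that separates microglia from monocytes, and the part of monocytes in these levels was not tested. Without both WT libraries A the median of the list was -0.00054 and the contrast of Fn1 -0.42.

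Of 19 neutrophil genes 13 were positive with a median of 0.62, and Ltf, lactoferrin, at 2.22 (SE 0.97), and Padi4, which citrullinates histones, at 2.26 (SE 1.04), were at an unadjusted p under 0.05. Padi4 stood at 22.1, 9.60 and 73.9 CPM in WT CL, 2.68, 2.70 and 1.14 CPM in WT IL, 15.9, 8.23 and 8.38 CPM in cKO CL and 2.67, 3.38 and 3.61 CPM in cKO IL, so that IL lay below CL in both genotypes. Stfa2 had -4.43 (SE 2.60) and Lcn2 1.72 (SE 1.16). Of 20 genes of the cell cycle and DNA replication 16 were positive with a median of 0.78. Aurkb, a mitotic kinase, at 2.27 (SE 1.01), and Rrm2, a subunit of ribonucleotide reductase, at 2.57 (SE 1.24), were at an unadjusted p under 0.05, while Cenpe had 1.41 (SE 0.77) and Mcm4 1.52 (SE 0.95). Among markers of other cells, 3 of 15 neuronal genes were positive with a median of -0.68, 7 of 12 astrocyte genes with a median of 0.31, 9 of 14 oligodendrocyte genes with 0.48, 10 of 14 endothelial and mural genes with 0.47, 9 of 11 genes of border-associated macrophages with 0.41, 7 of 14 T and NK cell genes with -0.05 and 0 of 8 B cell genes with -0.86. The summed neuronal level was 117 to 330 CPM in the CL libraries and 35.2 to 111 CPM in the IL libraries.

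Among the negative genes of lowest p were transcripts of the pituitary and the choroid plexus. Gh, which encodes growth hormone of the pituitary, stood at 0.970, 0.300 and 64.3 CPM in WT CL, 0.699, 0.205 and 590 CPM in WT IL, 1.47, 0.494 and 211 CPM in cKO CL and 0.505, 0.0296 and 0.0306 CPM in cKO IL. It was high in 1 library of each of 3 groups and in no cKO IL library. Its contrast was -11.77 (SE 3.22), and -2.98 without WT IL C. Scg2, a granin of endocrine and nerve cells, followed the same libraries with 45.4 CPM in WT IL C and 25.9 CPM in cKO CL C, and had a contrast of -6.57 (SE 1.93). Over 7 pituitary hormone genes, a list added after these values were seen, the summed level was 112 CPM in WT CL C, 686 CPM in WT IL C and 290 CPM in cKO CL C, and 4.18 to 18.4 CPM in the other 9 libraries.

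Ttr encodes transthyretin, the main secreted protein of the choroid plexus. It stood at 2.54, 2.85 and 4.69 CPM in WT CL, 13.1, 22.8 and 215 CPM in WT IL, 42.5, 48.4 and 1219.8 CPM in cKO CL and 2.60, 299.5 and 99.4 CPM in cKO IL. The cKO hemispheres overlapped, and the contrast was -6.38 (SE 1.76). The summed level of 9 choroid plexus genes, also listed after these values were seen, was 2026 CPM in cKO CL C, 557 CPM in cKO IL B and 387 CPM in WT IL C. In the other 9 libraries it was between 20.6 and 205 CPM. Carry-over of such tissue was not tested.

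Chga, chromogranin A of secretory granules, had the negative contrast of lowest p. It stood at 7.31, 9.15 and 10.6 CPM in WT CL, 5.48, 4.50 and 31.2 CPM in WT IL, 10.5, 15.2 and 33.6 CPM in cKO CL and 1.30, 1.66 and 1.53 CPM in cKO IL, which was below all other libraries. Its contrast was -4.33 (SE 1.14, 95% interval -6.68 to -1.97, unadjusted p = 0.000922 by edgeR) and ranged from -4.74 to -2.87 over the fits without 1 library. The smallest contrast in size came without WT IL C. That library and cKO CL C held the highest levels of Chga and the highest summed levels of pituitary hormone genes, at 686 and 290 CPM. The part of such tissue in the contrast was not tested. The genes most like Chga over the 12 libraries were Krt18 (Pearson r = 0.908), Chgb (0.873) and Peg3 (0.844). Dnah7b, an axonemal dynein of cilia, showed the same low cKO IL level, at 3.61, 3.41 and 2.66 CPM, against 50.4, 21.8 and 22.4 CPM in cKO CL, 14.5, 15.7 and 2.64 CPM in WT CL and 15.2, 10.8 and 5.23 CPM in WT IL. Its contrast was -3.20 (SE 1.01).

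**Figure D5:**
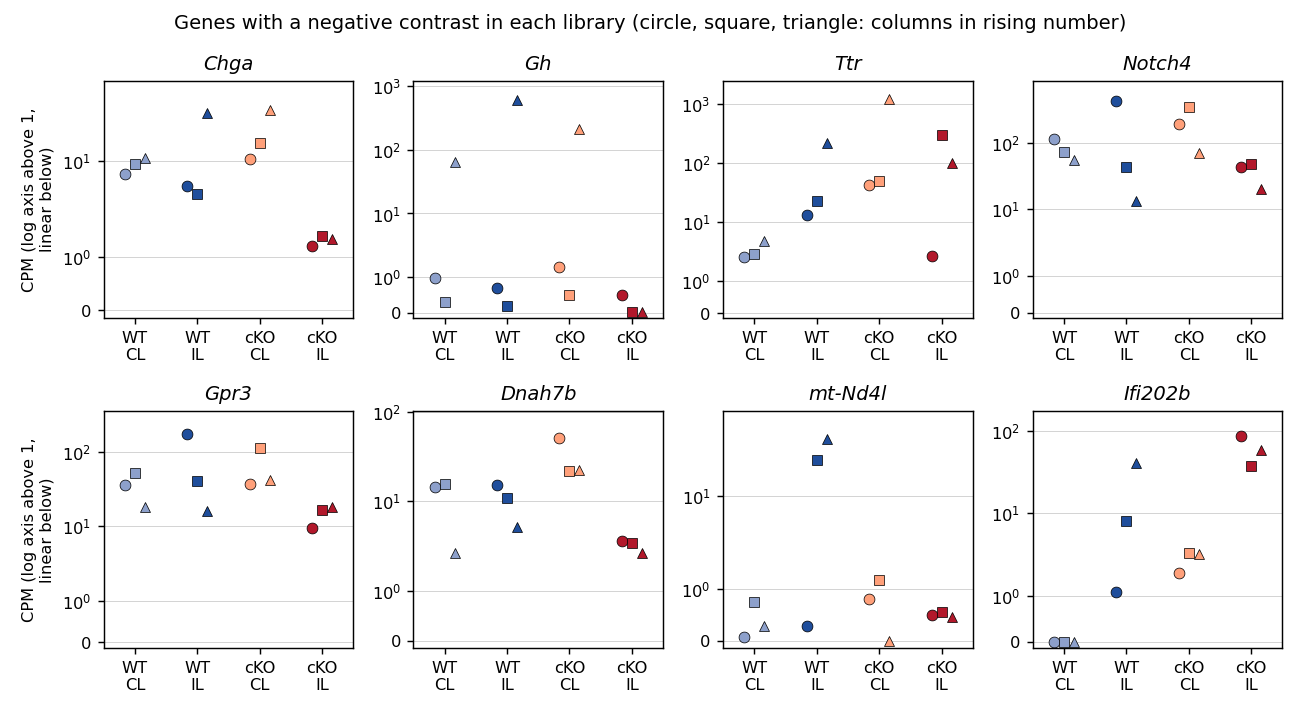
Level in CPM of 8 genes with a negative contrast in each of the 12 libraries, on an axis that is logarithmic above 1 and linear below, with circles, squares and triangles for libraries A, B and C. Gh is high in 3 single libraries at 64.3, 590 and 211 CPM, Chga and Dnah7b are low in all cKO IL libraries, and Ifi202b is at 0 in all WT CL libraries.

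Gpr3, a receptor that raises cyclic AMP without a known ligand, stood at 36.5, 52.0 and 18.2 CPM in WT CL, 177, 41.4 and 16.2 CPM in WT IL, 37.5, 114 and 42.1 CPM in cKO CL and 9.46, 16.7 and 18.0 CPM in cKO IL. The cKO hemispheres did not overlap and the WT hemispheres did. Its contrast was -3.26 (SE 0.97). Notch4, a receptor of endothelial cells, stood at 112, 72.6 and 55.7 CPM in WT CL, 423, 43.5 and 13.5 CPM in WT IL, 193, 348 and 71.1 CPM in cKO CL and 43.6, 47.6 and 20 CPM in cKO IL, and had a contrast of -3.46 (SE 1.13). Without WT IL A the contrast of Notch4 was -0.97. Cd164l2 had -4.63 (SE 1.43). The mitochondrial gene mt-Nd4l had -6.34 (SE 1.97) from 24.7 and 41.0 CPM in WT IL B and WT IL C against at most 1.26 CPM in the other 10 libraries. The authors removed mitochondrial DNA reads before alignment.

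Ifi202b, an interferon-inducible DNA-binding protein, had 0 counts in all 3 WT CL libraries, so the sign of its fitted contrast, which was negative, depends on how 0 is treated. It stood at 1.11, 8.14 and 41.1 CPM in WT IL, 1.88, 3.35 and 3.19 CPM in cKO CL and 87.1, 37.8 and 59.4 CPM in cKO IL. IL was above CL in both genotypes, and no fold is given.

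The hemispheres lay apart in opposite directions in WT and cKO, with no overlap in either genotype, in few genes. In 4 genes (0.0112%) every cKO IL library was above every cKO CL library while every WT IL library was below every WT CL library. Adal, Zmat3 and D930030I03Rik were among them, named because they are so few. Adal stood at 13.3, 12 and 13.5 CPM in WT CL, 5.65, 8.30 and 11.3 CPM in WT IL, 8.17, 8.07 and 8.18 CPM in cKO CL and 13.3, 10 and 16.6 CPM in cKO IL. Its contrast was 1.32 and did not pass (unadjusted p = 0.166 by edgeR). The reverse pattern was found in 117 genes (0.328%), of which 2 reached 10 CPM in a group.

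Of the 1355 genes, 288 kept an unadjusted p under 0.05 and their direction in all 12 such fits, 26 with a positive and 262 with a negative contrast. Of these, 29 reached 10 CPM in a group and were not gene models, 23 positive and 6 negative. The positive ones included Cdh1, Ahr, Mfap1a, Xaf1, Defb45, Ifih1, Oasl1, Rsad2, Gsr, Srxn1 and Rpl6, and the negative ones were Chga, Ttr, Gpr3, mt-Nd4l, Dnah7b and Ifi202b. The size of some still rested on 1 library: Cdh1 stood at 2.35 without WT CL A, Ttr at -3.11 without cKO CL C and Gpr3 at -1.82 without WT IL A. Emb, a partner of monocarboxylate transporters, and Mcu, the pore of the mitochondrial calcium uniporter, were also among the positive ones and were picked from the 29 after their values were seen. Emb had a contrast of 3.28 (SE 1.09) and Mcu of 2.21 (SE 0.83).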

How the data were processed

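RNA was sequenced from 12 bulk libraries of microglia (SMARTer stranded total RNA pico V2 kit, HiSeq X, paired ends). The authors removed adapters, low-quality reads and ribosomal RNA and mitochondrial DNA reads, mapped the remainder in Partek Flow (version 8.0) by STAR (version 2.5.3a) to the mm10 genome, and deposited raw counts per gene, for which the annotation release is not given in the sources used here. The authors tested with DESeq2.

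Of 53801 genes 49642 had a count, and 35674 passed edgeR's filterByExpr. The contrast was fitted over all 4 groups with TMM factors and the quasi-likelihood test (edgeR 4.0.16, R 4.3.3), with Benjamini-Hochberg adjustment over all tested genes, and the code was tested on simulated data. Other fits used DESeq2 1.42.0, limma 3.58.1 (voom with quality weights), 3 scalings, 3 other gene filters, thinning to 2091512 counts, a replicate block and libraries left out. List levels are mean log2 CPM with a prior count of 2.

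The genes named are the 10 of lowest p in each direction among genes with at least 10 CPM in a group that are not gene models, the 4 of lowest p in each of 22 lists, genes called by DESeq2 and P2ry12, with exceptions stated. A few genes that this rule takes, the floxed gene among them, are not reported here. The members and the lists were chosen with earlier results of these data known. Coordinates are from GENCODE on GRCm38.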

Additional observations from a re-analysis of the deposited data

Results flagged for a closer look

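Tcstv3, a gene of early embryonic cells in mouse, had opposite changes in the genotypes with no overlap in either. It held 0 counts in all WT CL libraries, 28, 18 and 18 counts in WT IL, 43, 38 and 24 counts in cKO CL and 1, 0 and 0 counts in cKO IL. The fitted contrast of -14.3 depends on how 0 is treated and is not a fold, and edgeR gave an adjusted p of 1 while DESeq2 called the gene. Genes of near-identical copies such as this one can share reads.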

How the results depend on the processing

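The count of called genes was 0 in both directions in every fit that left out 1 library. It was 2 positive and 2 negative with DESeq2, 14 and 3 with no filter on low counts, and 68 and 153 without the 2 shallow libraries (WT CL B and C), so that these calls rest on WT CL A, which stood apart and is assumed to vary like the other groups. At an unadjusted p under 0.05, with or without the 2-fold threshold, the counts were 191 positive and 1593 negative with total counts, 696 and 1643 with no filter, 180 and 200 with 10 counts in every library (10437 genes tested), and 1581 and 5249 without the shallow libraries. Voom with quality weights gave 2957 negative genes (2952 past 2-fold), and leaving out gene models and sensory receptors gave 332 of 19267 tested. Without both WT libraries A, an alternative chosen after seeing the data, 370 were positive and 462 negative, 0 were called and signs turned for H2-DMb1 (-0.32), Spp1 (-0.34), Fn1 (-0.42), Scd2 (-0.85) and Ccl7 (-0.74). Without 1 library they ranged from 177 to 989 positive and from 582 to 5356 negative. Counts of positive genes moved by over 1.5 times without WT CL A (516), WT CL B (634), WT CL C (597), WT IL A (177), WT IL C (989) or cKO CL B (183), and of negative genes without WT CL B (5356), cKO IL A (1754), WT IL A (641) or cKO CL A (582).

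The median contrast over all genes was -1.255 without the shallow libraries, -0.86 with total counts, -0.65 where only abundant genes set the TMM factors and -0.51 by RLE, against -0.48, and -0.86 to -0.19 without 1 library. List medians within these shifts of 0 have no firm direction.

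With a replicate block, 159 positive and 914 negative genes were at an unadjusted p under 0.05, 0 were called, and the median of the interferon-induced genes was 1.07 with 5 such members. Samples sharing a number correlated at -0.13, 0.147 and -0.058 in WT and 0.209, 0.059 and 0.074 in cKO. Samples of different number correlated at -0.186 to 0.219 in WT and at -0.123 to 0.0486 in cKO. With 3 libraries in a group these values cannot decide whether the numbers mark pairs, and the main fit used no pairing.

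Signs turned for Igf1 (0.22 with voom, range -2.05 to 0.40), Lcn2 (-0.18 with voom), Ch25h (0.50 with voom, 0.19 without cKO CL C, range -6.78 to 0.33), Slc9a8 (0.10) and Slc9a7 (-1.05) without the shallow libraries, and Ndufb9 (-0.76 without them, range -0.10 to 4.23). Ranges are over the fits without 1 library. They also crossed 0 for H2-DMb1 (-0.044 to 1.75), Scd2 (-0.43 to 1.19), Ccl7 (-0.29 to 3.47), Msr1 (-2.23 to 0.12) and Mylip (-0.69 to 0.035). The cause was not tested.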
